A study of Homo sapiens with 6 samples.

Results

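The mitochondrially encoded transcripts are the genes whose symbol starts with MT-, and 37 of the 52992 genes in the libraries met this rule. They are 13 mRNAs, 2 rRNAs and 22 tRNAs, all on the mitochondrial chromosome. RNA sequencing was done on J82, an established human bladder cancer cell line, in a tet-control form and in a tet-ZFP36L1 form in which doxycycline switches on ZFP36L1, an RNA-binding protein known to promote decay of mRNAs with AU-rich elements. Each form was grown to about 90% confluence and sampled without doxycycline (called 0 h) and after 6 h and 24 h with 1 µg/mL of it, as total RNA sequenced on a BGISEQ-500. There was 1 library for each of the 6 groups. The groups thus had no replicates, no test was run, and all intervals cover counting error only. Both lines received doxycycline at 6 h and 24 h, so the drug and the time in culture cannot be told apart, and nothing in the labels says whether either form is a single clone.

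Human mitochondrial DNA is a small circle that is transcribed from both strands into long precursor RNAs. The heavy-strand precursor carries both rRNAs, most tRNAs and 12 of the 13 mRNAs, and the light-strand precursor carries MT-ND6. The tRNAs lie between the other genes, and their excision releases the mature mRNAs and rRNAs, most of which are then given poly(A) tails. Because they are cut from shared precursors, the members are not independent of each other. All 13 mRNAs encode subunits of the oxidative phosphorylation complexes, whose other subunits come from nuclear genes. Doxycycline belongs to the tetracyclines, antibiotics that bind bacterial ribosomes and can also act on the mitochondrial ribosome.

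3 features of these sequences bear on how their reads were counted, and they are printed from GENCODE release 29 on GRCh38. First, reading frames overlap within shared mRNAs. MT-ATP8 and MT-ATP6 share 46 bases (chromosome MT, 8527 to 8572, heavy-strand genes on the + strand), shown in capitals in the last 75 bases of the former and the first 75 of the latter.
MT-ATP8: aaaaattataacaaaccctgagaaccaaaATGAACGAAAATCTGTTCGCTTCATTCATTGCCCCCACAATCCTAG
MT-ATP6: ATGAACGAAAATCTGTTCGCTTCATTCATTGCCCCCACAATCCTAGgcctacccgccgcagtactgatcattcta
MT-ND4L and MT-ND4 share 7 bases (10760 to 10766), again in capitals.
MT-ND4L: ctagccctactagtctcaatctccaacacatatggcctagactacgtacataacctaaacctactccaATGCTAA
MT-ND4: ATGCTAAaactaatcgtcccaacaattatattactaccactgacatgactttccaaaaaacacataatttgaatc
Reads of a shared mRNA were divided between the 2 names by the authors' counting, so the levels within each pair are uncertain.

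The nuclear genome also holds copies of mitochondrial genes, and a short read can match both. MTCO1P12, a copy of MT-CO1 on chromosome 1 (631074 to 632616, + strand), matched it at 98.7% of 1542 aligned bases. In the stretch from base 304 to 363 of MT-CO1, the 60-base window holding the most differences, the copy differed by T318C, C339T and A363C. Positions count from 1 at the 5′ end of MT-CO1, whose base comes first, and the capitals mark these bases.
MT-CO1: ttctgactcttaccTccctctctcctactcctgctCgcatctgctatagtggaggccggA
MTCO1P12: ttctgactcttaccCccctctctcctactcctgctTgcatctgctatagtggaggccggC
Of all 31-base words of a mitochondrial transcript, the share also present in another gene was 66.7% for MT-CO1, 63.7% for MT-ATP6, 56.9% for MT-ND2 and 50.5% for MT-CO2. It was 4.95% for MT-CYB, 3.48% for MT-ND3 and 0% for MT-RNR1.

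The mRNAs have little or no untranslated sequence, and for 6 of the 13 the gene ends before the stop codon is complete. The poly(A) tail supplies the missing letters. The last 30 bases of 4 such genes and of 3 with a complete stop codon are printed, with the stop letters in capitals, to show both classes.
MT-ND1: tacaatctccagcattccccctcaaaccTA
MT-CO3: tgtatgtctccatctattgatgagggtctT
MT-ND4: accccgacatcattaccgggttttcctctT
MT-CYB: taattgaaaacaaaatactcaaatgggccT
MT-CO1: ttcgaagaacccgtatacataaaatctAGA
MT-CO2: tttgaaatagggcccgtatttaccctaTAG
MT-ND6: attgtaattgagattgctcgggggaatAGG

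The AU-rich core TATTTAT, the letters ZFP36 proteins are known to prefer, was searched on the transcript strand of each gene. It occurred 1 time each in MT-ND1, MT-ND2, MT-CO3, MT-ND5 and MT-ND6, and in none of the other 8 mRNAs or either rRNA. It stands in capitals with its neighbouring bases.
MT-ND1: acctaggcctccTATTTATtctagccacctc
MT-ND2: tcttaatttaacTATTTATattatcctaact
MT-CO3: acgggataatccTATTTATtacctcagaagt
MT-ND5: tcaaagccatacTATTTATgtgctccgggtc
MT-ND6: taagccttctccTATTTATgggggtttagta
As a background, transcript ends cut to the same length held it in 4.96% of cases at the length of MT-ATP8 and in 27.1% at that of MT-ND5. A match is only a match of letters.

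The 6 libraries held 19605308 to 20245037 estimated counts on annotated genes, and 14515 to 15695 genes had at least 10 counts. The tet-ZFP36L1 24 h library stood apart from the rest, with the most genes detected and the highest TMM scaling factor, 1.11 against 0.941 to 1.01. ZFP36L1 itself was at 206 to 234 CPM in the 3 tet-control libraries and the tet-ZFP36L1 0 h library, and at 3127 and 3133 CPM in tet-ZFP36L1 at 6 h and 24 h. CPM is the count per 1000000 counts of the TMM-scaled library. Of 6 epithelial markers, 4 or 5 had at least 10 counts in each library, and the keratins KRT8 and KRT18 were present in all. Of 6 urothelial markers, 1 or 2 had at least 10 counts, and UPK2 and UPK3A were at 0 in all libraries. Summed over the whole leukocyte list (1 of 4 markers, CD68, with at least 10 counts), the level was 1.09 to 28.2 CPM. The mesenchymal list, all 4 markers detected, summed to 1191, 1624 and 1358 CPM in tet-control at 0, 6 and 24 h and to 11420, 13650 and 3586 CPM in tet-ZFP36L1. The sum was thus higher in tet-ZFP36L1 at every time and lower at 24 h than at 0 h within that line. Single markers varied, with log2 line differences from -0.03 to 4.70 at 0 h and from -0.16 to 2.76 at 24 h. Within tet-ZFP36L1 their log2 changes from 0 h to 24 h ran from -1.90 to 0.21. The part of these markers in the results was not tested.

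Mitochondrial RNA was higher at 6 h than at 0 h in both lines, and at 24 h only the tet-ZFP36L1 library remained above its 0 h level. In tet-control the 15 genes with counts made up 1.54% of the library at 0 h (exact binomial 95% interval 1.53 to 1.54), 2.92% at 6 h (2.91 to 2.93) and 1.41% at 24 h (1.41 to 1.42). In tet-ZFP36L1 they made up 1.47% (1.46 to 1.47), 2.45% (2.44 to 2.46) and 2.36% (2.36 to 2.37). The share was thus 1.90 times its 0 h value at 6 h and 0.918 times at 24 h in tet-control. In tet-ZFP36L1 it was 1.67 times at 6 h and 1.61 times at 24 h. In bulk RNA, more mitochondrial RNA per cell and a different make-up of the cells sampled cannot be told apart.

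**Figure D1:**
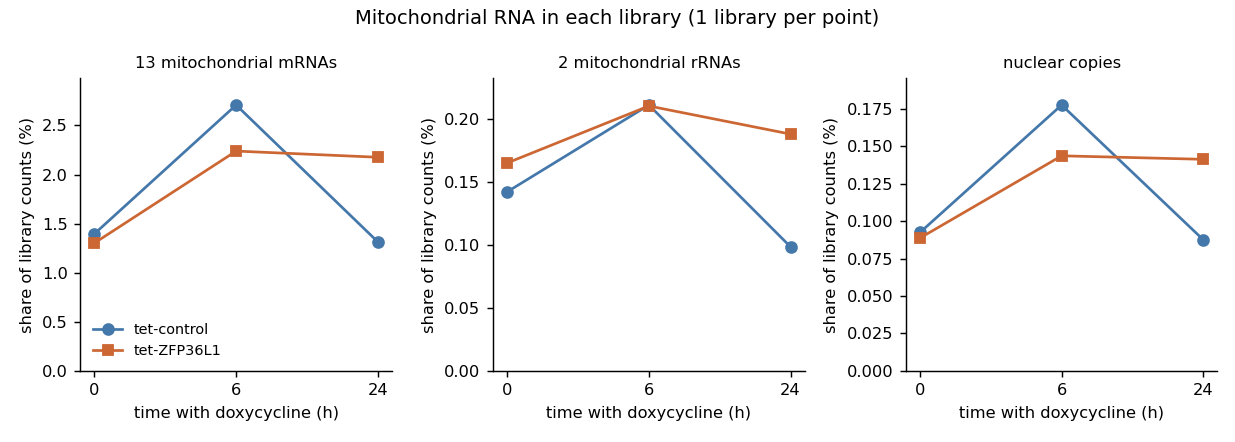
Share of library counts (%, y axis from 0) against time with doxycycline (h, evenly spaced) for the 13 mRNAs, the 2 rRNAs and the nuclear copies of mitochondrial genes; each point is 1 library. In tet-control the mRNA share went 1.40%, 2.71% and 1.31%, and in tet-ZFP36L1 it went 1.30%, 2.24% and 2.18%.

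The mRNA and rRNA parts did not change in equal measure. The 13 mRNAs at 6 h had 1.94 times their 0 h share in tet-control and 1.72 times in tet-ZFP36L1. For the rRNAs these ratios were 1.48 and 1.27. At 24 h the rRNA share was 0.693 times its 0 h value in tet-control and 1.14 times in tet-ZFP36L1. The rRNAs were 9.25%, 7.24% and 6.98% of mitochondrial counts in tet-control at 0, 6 and 24 h, and 11.3%, 8.60% and 7.96% in tet-ZFP36L1, so each line had its highest rRNA proportion without doxycycline. In neither line do the labels say whether rRNA was depleted or poly(A) RNA was selected, so these proportions describe the libraries and not the cells.

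Per gene, changes were taken as differences of log2(CPM + 0.5), which understates changes of low genes. A gene was counted as higher or lower when the difference was at least 1.5-fold, that is 0.585 on the log2 scale. At 6 h all 13 mRNAs were above their 0 h level in both lines. In tet-control 11 of 13 were at least 1.5-fold higher, with a median change of 0.89 (range 0.44 to 1.44), whereas 7.47% of the 11909 measured genes (mean count of 50 or more over the libraries) were. In tet-ZFP36L1 all 13 were, with a median of 0.98 (range 0.62 to 1.43), against 9.09% of all genes. The median change of all genes in tet-control was -0.01. MT-ATP8 and MT-ND3 were the members of tet-control below the threshold, at 0.44 and 0.46.

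At 24 h the lines differed in where the mRNAs stood. In tet-control none of the 13 was past 1.5-fold of its 0 h level in either direction, with a median of -0.04 (range -0.43 to 0.10). Among all genes, 1.60% were higher and 1.92% lower. From 6 h to 24 h, 12 of 13 were at least 1.5-fold lower in that line (median -1.04, against 6.60% of all genes), and MT-ND3 was the exception at -0.36. In tet-ZFP36L1, 8 of 13 were at least 1.5-fold above 0 h (median 0.70, range 0.50 to 1.35), against 11.8% of all genes. MT-ND5, MT-CO3 and MT-ATP6, each at 0.58, lay just under the threshold. With plain CPM, which leaves out TMM scaling, the count was 13 of 13, and with deposited TPM it was 12. From 6 h to 24 h no mRNA of tet-ZFP36L1 passed 1.5-fold (median -0.24, range -0.57 to 0.15), where 8.48% of all genes were lower and 12% higher.

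**Figure D2:**
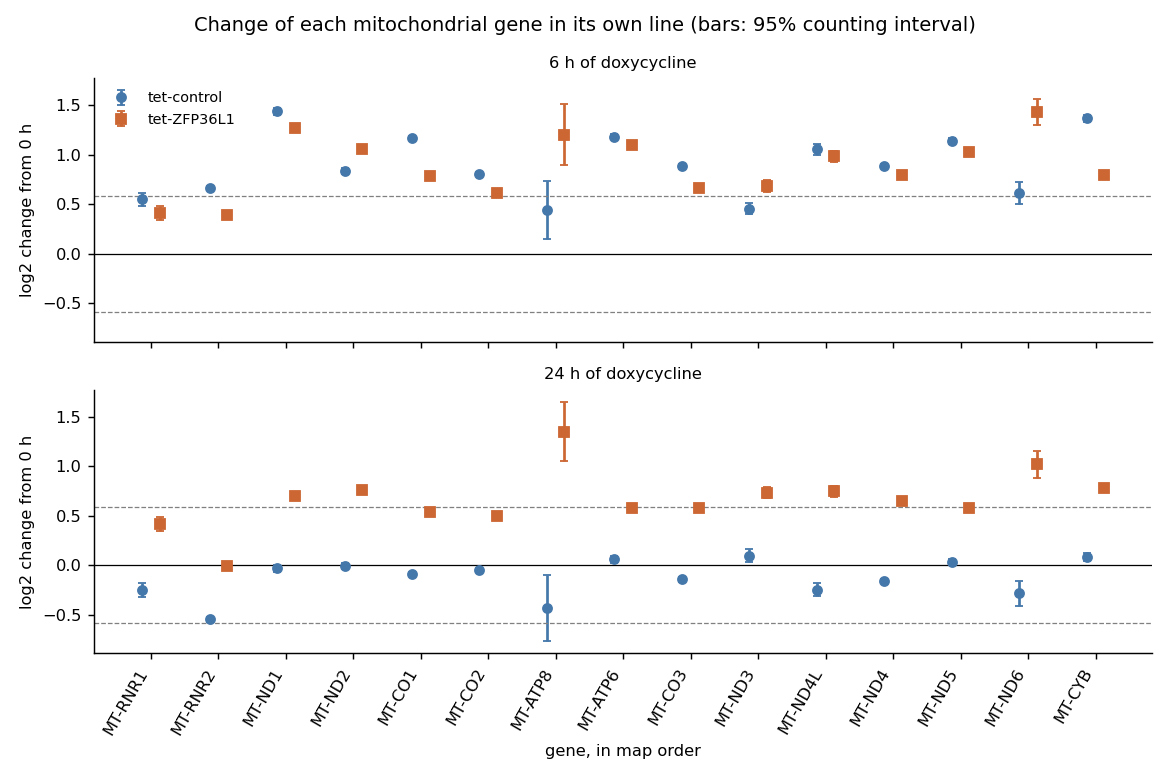
Log2 change from 0 h (y axis) of the 13 mRNAs and 2 rRNAs in map order (x axis), at 6 h above and 24 h below; circles are tet-control, squares tet-ZFP36L1, bars the 95% counting interval and dashed lines 1.5-fold. At 6 h every point lies above 0, and at 24 h the tet-control mRNAs lie between -0.43 and 0.10 and the tet-ZFP36L1 mRNAs between 0.50 and 1.35.

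Subtracting the tet-control change from the tet-ZFP36L1 change gives an induction difference. At 6 h its median over the 13 mRNAs was -0.09 (range -0.57 to 0.82): a value near 0 beside a higher level at 6 h in each line. MT-ATP8 and MT-ND6 were at least 1.5-fold higher, 2 of 13 against 7.02% of all genes, and none was that much lower, against 14.3%. At 24 h the median was 0.73 (range 0.52 to 1.78), with 10 of 13 at least 1.5-fold higher and none lower. Of all genes 13.9% were higher and 17.4% lower. At 2-fold, 2 of the 13, MT-ATP8 and MT-ND6, were higher at 24 h, against 4.69% of all genes. By own change from 0 h, 6 of 13 were at least 2-fold higher at 6 h in tet-control (2.43% of all genes) and 6 in tet-ZFP36L1 (2.10%), and 2 were at 24 h in tet-ZFP36L1 (3.38%). The 0 h library of each line enters both differences, so the values at 6 h and 24 h are not independent.

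The uninduced lines were close for most members. At 0 h the 13 mRNAs were at a median of -0.24 in tet-ZFP36L1 against tet-control (range -0.87 to 0.27), and 1 of them, MT-ND6, was at least 1.5-fold lower, against 7.98% of all genes. Under doxycycline the median line difference was -0.30 at 6 h (range -0.49 to 0.26), with 0 of 13 at least 1.5-fold lower, where 15.3% of all genes were. At 24 h it was 0.58 (range 0.17 to 1.29), with 6 of 13 at least 1.5-fold higher against 18.4% of all genes.

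Complex I, the NADH dehydrogenase that feeds electrons into the chain, takes 7 subunits from mitochondrial DNA. MT-ND1 was at 513, 1392 and 502 CPM in tet-control at 0, 6 and 24 h and at 484, 1166 and 786 CPM in tet-ZFP36L1. It had the largest 6 h change of the 13 mRNAs in tet-control, 1.44 (1.41 to 1.47), and 1.27 (1.23 to 1.30) in tet-ZFP36L1. At 24 h its levels were -0.03 and 0.70 from 0 h, so its tet-ZFP36L1 value lay between those at 0 h and 6 h.

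MT-ND2, a core membrane subunit, was at 826, 1473 and 820 CPM in tet-control and at 647, 1346 and 1098 CPM in tet-ZFP36L1. MT-ND4, another proton-pumping membrane subunit, was at 2024, 3741 and 1818 CPM and at 1623, 2825 and 2547 CPM. MT-ND5, the subunit with the longest of the 13 mRNAs, was at 874, 1926 and 897 CPM and at 673, 1373 and 1007 CPM. The 6 h library was the highest of its line for all of these, except that MT-ND4 in tet-ZFP36L1 was 0.046 higher at 24 h than at 6 h with plain CPM, and the 24 h library was near 0 h in tet-control and above it in tet-ZFP36L1. Their induction differences at 24 h were 0.77 (0.73 to 0.82), 0.81 (0.78 to 0.83) and 0.54 (0.50 to 0.59).

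MT-ND3 and MT-ND4L encode small membrane subunits. MT-ND3 was at 203, 278 and 217 CPM in tet-control and at 198, 318 and 328 CPM in tet-ZFP36L1, so in the latter its 24 h level was not below its 6 h level. Its 6 h change in tet-control, 0.46 (0.40 to 0.52), did not overlap the counting interval of MT-ND1. MT-ND4L was at 220 (0 h), 458 (6 h) and 186 CPM (24 h) in tet-control and at 187, 370 and 314 CPM in tet-ZFP36L1, with MT-ND4 changing from 0 h in the same direction in all 4 comparisons.

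MT-ND6 is the only mRNA cut from the light-strand precursor. It was at 56.0, 86.1 and 46.0 CPM in tet-control and at 30.4, 83.1 and 62.2 CPM in tet-ZFP36L1. The 6 h libraries were nearly level, and the lines were furthest apart at 0 h. Its 6 h change was 0.62 (0.51 to 0.73) in tet-control and 1.43 (1.30 to 1.57) in tet-ZFP36L1. The induction difference was 0.82 (0.64 to 0.99) at 6 h and 1.30 (1.12 to 1.49) at 24 h, and both are taken from the low tet-ZFP36L1 0 h value. Per MT-ND6 count, the 12 heavy-strand mRNAs had 250, 333 and 291 counts in tet-control and 424, 276 and 313 in tet-ZFP36L1, so the 2 lines went opposite ways from 0 h to 6 h. The sources used here do not say whether the libraries kept strand. MT-ND6 lies opposite heavy-strand precursor RNA, and without strand, reads from both cannot be told apart.

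Complex III, the cytochrome bc1 complex, has MT-CYB, its cytochrome b, as its single mitochondrially encoded subunit. MT-CYB was at 562, 1450 and 595 CPM in tet-control and at 676, 1174 and 1159 CPM in tet-ZFP36L1. In tet-ZFP36L1 the 6 h and 24 h levels were nearly the same. Its 6 h change was 1.37 (1.33 to 1.40) in tet-control and 0.80 (0.77 to 0.83) in tet-ZFP36L1, and this made its induction difference at 6 h, -0.57 (-0.61 to -0.53), the lowest of the 13. At 24 h the difference was 0.70 (0.65 to 0.74), of the opposite sign.

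Complex IV, cytochrome c oxidase, has 3 mitochondrially encoded subunits, which form its catalytic core. MT-CO1 was at 4182, 9430 and 3942 CPM in tet-control and at 4441, 7668 and 6429 CPM in tet-ZFP36L1. By estimated counts it ranked between 2 and 5 among all genes in every library. MT-CO2 was at 2540, 4456 and 2462 CPM and at 2076, 3185 and 2929 CPM, and MT-CO3 at 1223, 2258 and 1107 CPM and at 1104, 1755 and 1653 CPM. For all 3 the 6 h library was the highest of its line, except that in tet-ZFP36L1 MT-CO2 and MT-CO3 were higher at 24 h than at 6 h with plain CPM (by 0.075 and 0.11) and with deposited TPM (by 0.0027 and 0.037). The 24 h level was above 0 h only in tet-ZFP36L1. Their own changes in tet-ZFP36L1 at 24 h were 0.53, 0.50 and 0.58, so none of the 3 passed 1.5-fold, and their induction differences were 0.62, 0.54 and 0.73.

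Complex V, the ATP synthase, takes MT-ATP6, part of its proton channel, and MT-ATP8, a small membrane subunit. MT-ATP6 was at 800.0, 1817 and 833 CPM in tet-control and at 802, 1723 and 1199 CPM in tet-ZFP36L1. MT-ATP8 was far less counted, at 8.4, 11.7 and 6.1 CPM and at 5.8, 14.1 and 15.7 CPM. Its induction difference at 24 h was the largest of the 13, 1.78 (1.33 to 2.23), with the widest interval, while that of MT-ATP6 was the smallest, 0.52 (0.48 to 0.56). The counts of MT-ATP6 per count of MT-ATP8 were 94.8, 156 and 136 in tet-control and 137, 122 and 76.6 in tet-ZFP36L1. Because both names lie on 1 mRNA and overlap by the 46 bases printed above, and because MT-ATP8 has an effective length of 31.4 of its 207 bases, this ratio also carries how reads were assigned.

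The rRNAs form the RNA cores of the small (MT-RNR1) and large (MT-RNR2) mitochondrial ribosomal subunits. MT-RNR1 was at 179, 263 and 151 CPM in tet-control and at 147, 196 and 196 CPM in tet-ZFP36L1. MT-RNR2 was at 1252, 1984 and 857 CPM and at 1497, 1968 and 1493 CPM. At 24 h MT-RNR2 was therefore below 0 h in tet-control, at -0.55 (-0.57 to -0.52), and level with it in tet-ZFP36L1, where the change was 0.00 (-0.03 to 0.02), unlike the mRNAs of that library. The TPM of MT-RNR2 per TPM of MT-RNR1 was 3.92, 4.24 and 3.19 in tet-control and 5.71, 5.63 and 4.27 in tet-ZFP36L1.

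None of the 22 tRNAs, which carry amino acids to the mitochondrial ribosome, had a count in any library. Their annotated lengths are 59 to 75 bases, and their effective lengths, the number of start positions open to a fragment, were 3.68 to 4.11. None of the 1112 transcripts under 80 bases of any gene had a count either. The tRNAs are thus listed at 0 in libraries that counted no transcript of their size, which gives no measure of tRNA level.

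On the length-corrected TPM scale, which allows levels of different genes to be compared, MT-CO2 was the highest mRNA and MT-ND6 the lowest in all 6 libraries. In tet-control at 0 h the TPM levels were 6189 for MT-CO2, 3775 for MT-CO1, 2488 for MT-CO3, 2299 for MT-ND4L, 2077 for MT-ND4, 1961 for MT-ATP6 and 1492 for MT-ND3. Lower levels were found for MT-ND2 (1178 TPM), MT-ND1 (813 TPM), MT-CYB (719 TPM), MT-ND5 (659 TPM), MT-ATP8 (331 TPM) and MT-ND6 (199 TPM). MT-CO1 led by counts and MT-CO2 by TPM, since the MT-CO1 transcript is the longer. Genes that neighbour each other on 1 precursor therefore differed widely in level. The TPM of MT-ND4L and MT-ATP8 rest on effective lengths of 118 of 297 and 31.4 of 207 bases and are the least certain.

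The proportions within the 13 mRNAs are a measure that scaling between libraries cannot move. Complex IV held 56.6%, 56.1% and 55.9% of these counts in tet-control at 0, 6 and 24 h and 58.9%, 54.8% and 56.4% in tet-ZFP36L1. Complex I held 33.6%, 32.5% and 33.4%, and 29.7%, 32.5% and 31.5%. Complex III held 4.01%, 5.04% and 4.43%, and 5.22%, 5.11% and 5.94%, and complex V held 5.76%, 6.35% and 6.25%, and 6.24%, 7.55% and 6.22%. In tet-control the 2 larger complexes moved little from 0 h relative to their size, and complexes III and V moved more. In tet-ZFP36L1 this did not hold: relative to size, complex III moved least from 0 h to 6 h and complex V least from 0 h to 24 h.

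**Figure D3:**
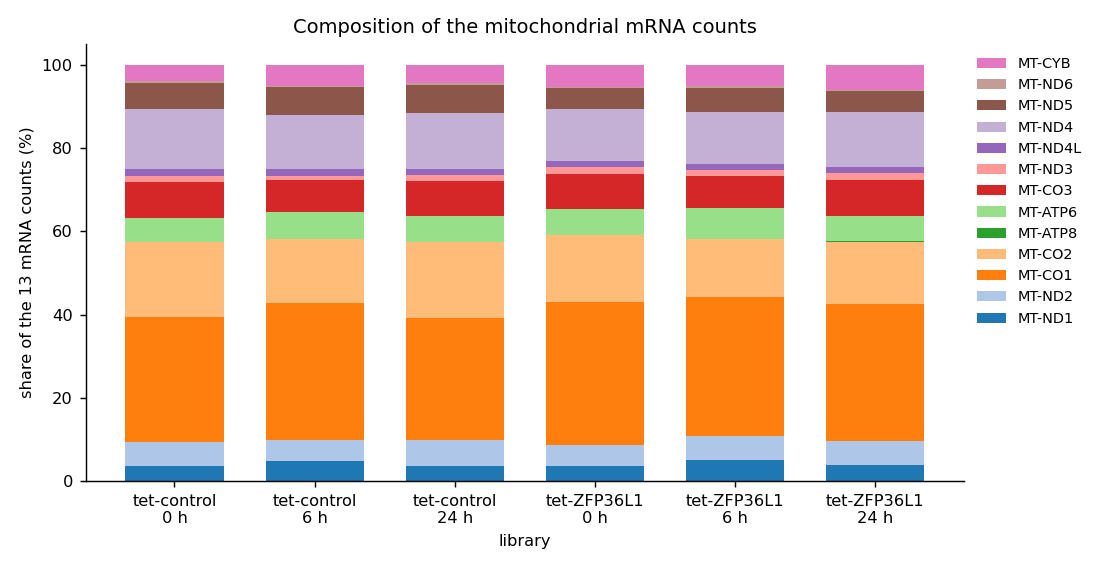
Share of the 13 mRNA counts (%, y axis) held by each gene in the 6 libraries (x axis, 1 stacked bar each). MT-CO1 is the widest band in each bar, at 29.3% to 34.3%, and MT-ATP8 and MT-ND6 are too thin to see.

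Single genes shifted more. MT-ND1 held 3.66%, 4.84% and 3.74% in tet-control and 3.74%, 5.07% and 4.03% in tet-ZFP36L1, a larger share at 6 h in both lines. MT-CO2 held 18.1%, 15.5% and 18.3%, and 16.0%, 13.8% and 15%, a smaller share at 6 h in both. From 0 h to 6 h, 4 genes (MT-ND1, MT-ATP6, MT-ND4L and MT-ND5) held a larger share in both lines and 4 (MT-CO2, MT-CO3, MT-ND3 and MT-ND4) a smaller one, while the other 5 went opposite ways. From 0 h to 24 h, 6 of 13 went the same way. MT-CYB was 4.01%, 5.04% and 4.43% in tet-control and 5.22%, 5.11% and 5.94% in tet-ZFP36L1, and thus held its largest share in the tet-ZFP36L1 24 h library.

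Place on the heavy-strand precursor, stop codon and motif were set against the changes. Over the 12 heavy-strand mRNAs, Pearson's r between position and change was 0.00 for tet-control at 6 h, -0.36 for tet-ZFP36L1 at 6 h and -0.04 for the induction difference at 24 h. These are descriptions across genes that share libraries and precursor. By stop codon, the 7 mRNAs with a complete one had a median induction difference at 24 h of 0.62 and the 6 with an incomplete one of 0.73. For the 5 mRNAs holding TATTTAT it was -0.11 at 6 h and 0.73 at 24 h, and for the 8 without it -0.08 and 0.66, ranges that overlapped at both times.

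Nuclear copies were counted in near-constant proportion to the mitochondrial genes. Of 398 annotated copies, 9 had a mean count of at least 50. Together the copies had between 5.87 and 6.20 counts per 100 mitochondrial counts in all 6 libraries, while the mitochondrial counts themselves ranged from 285256 to 579855. Some single copies varied more. Per 100 counts of a copy and its gene, MTCO1P12 held 9.26 to 10.4, MTCO2P12 4.56 to 6.53 and MTRNR2L8 1.33 to 1.94. MTCO1P12 was counted 9474, 17988 and 9033 times in tet-control and 9627, 15366 and 15547 times in tet-ZFP36L1. Like MT-CO1, it was higher at 6 h than at 0 h in both lines. In tet-ZFP36L1 its unscaled count was slightly higher at 24 h than at 6 h. By log2 CPM it was lower at 24 h (-0.16), as was MT-CO1 (-0.25).

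The next 4 by mean count were MTCO3P12, MTCO2P12, MTND4P12 and MTRNR2L8. MTCO3P12, on chromosome 1 (634376 to 634922), was counted 3128, 5772 and 2478 times in tet-control and 3061, 4475 and 4513 times in tet-ZFP36L1. MTCO2P12, also on chromosome 1 (632757 to 633438), was counted 2844, 5385 and 3398 times and 2349, 3816 and 3058 times, and was higher at 24 h than at 0 h in tet-control, where MT-CO2 was not. MTND4P12 had 1832, 3654 and 1630 counts and 1433, 2732 and 2658 counts, and MTRNR2L8 had 341, 733 and 229 counts and 590, 646 and 560 counts. Each had its highest unscaled count of a line at 6 h, except MTCO3P12 in tet-ZFP36L1, which was about level at 6 h and 24 h, and MTCO1P12 likewise. By log2 CPM these 2 were lower at 24 h than at 6 h in that line, at -0.17 and -0.16. With each mitochondrial gene summed with its copies, the median induction difference at 24 h was 0.73, the same as without them to 2 decimals.

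**Figure D4:**
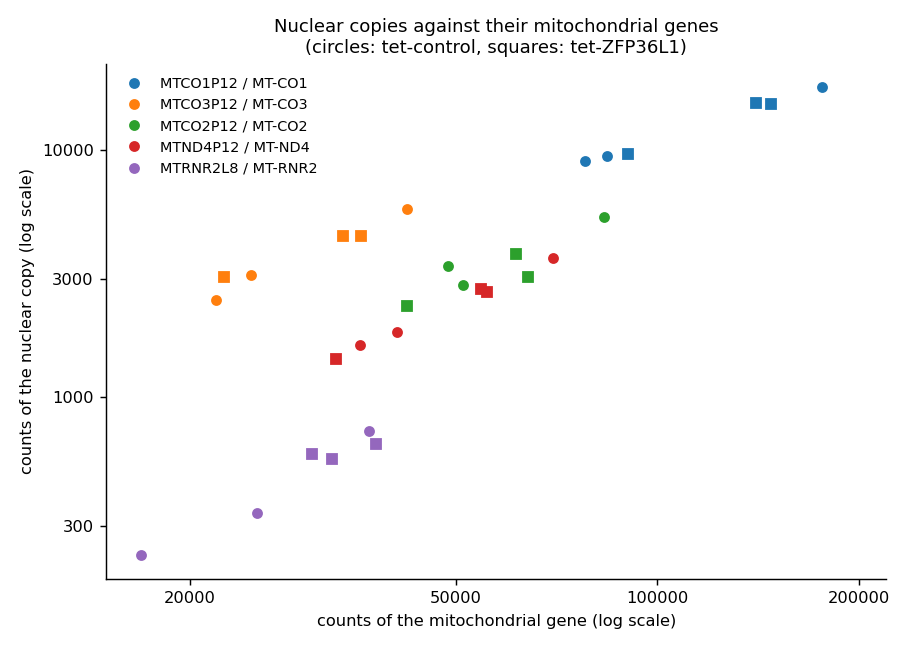
Counts of the 5 most counted nuclear copies (y axis, log scale) against the counts of the mitochondrial gene each resembles (x axis, log scale); each point is 1 library, circles tet-control and squares tet-ZFP36L1. The copies generally have more counts in libraries where the gene has more, as for MTCO1P12 between 9033 and 17988 counts. Among the departures, MTCO2P12 has more counts at 24 h than at 0 h in tet-control, where MT-CO2 has fewer. From 6 h to 24 h in tet-ZFP36L1, MTCO2P12 fell from 3816 to 3058 counts while MT-CO2 rose from 61428 to 63999. MTCO1P12 and MTND4P12 also went opposite to their genes in that step.

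Nuclear genes for the same complexes did not share these changes. The 72 nuclear subunits of complexes I, III, IV and V, all measured, had a median change at 6 h of -0.19 in tet-control (range -0.51 to 0.18) and of 0.00 in tet-ZFP36L1 (range -0.96 to 0.52). None was at least 1.5-fold higher in either line at 6 h, against 7.47% of all genes in tet-control and 9.09% in tet-ZFP36L1. In tet-control 0 of 72 were that much lower, against 7.72% of all genes, and in tet-ZFP36L1 4 of 72 were, against 15.6%. At 24 h in tet-ZFP36L1 the median was -0.07, with 0 of 72 higher and 15 lower. Of all genes 11.8% were higher and 17.0% lower, so the share that was lower was near the background. In that library the ranges of the 2 sets of genes did not meet: the highest nuclear subunit was at 0.46 and the lowest mitochondrial mRNA at 0.50.

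**Figure D5:**
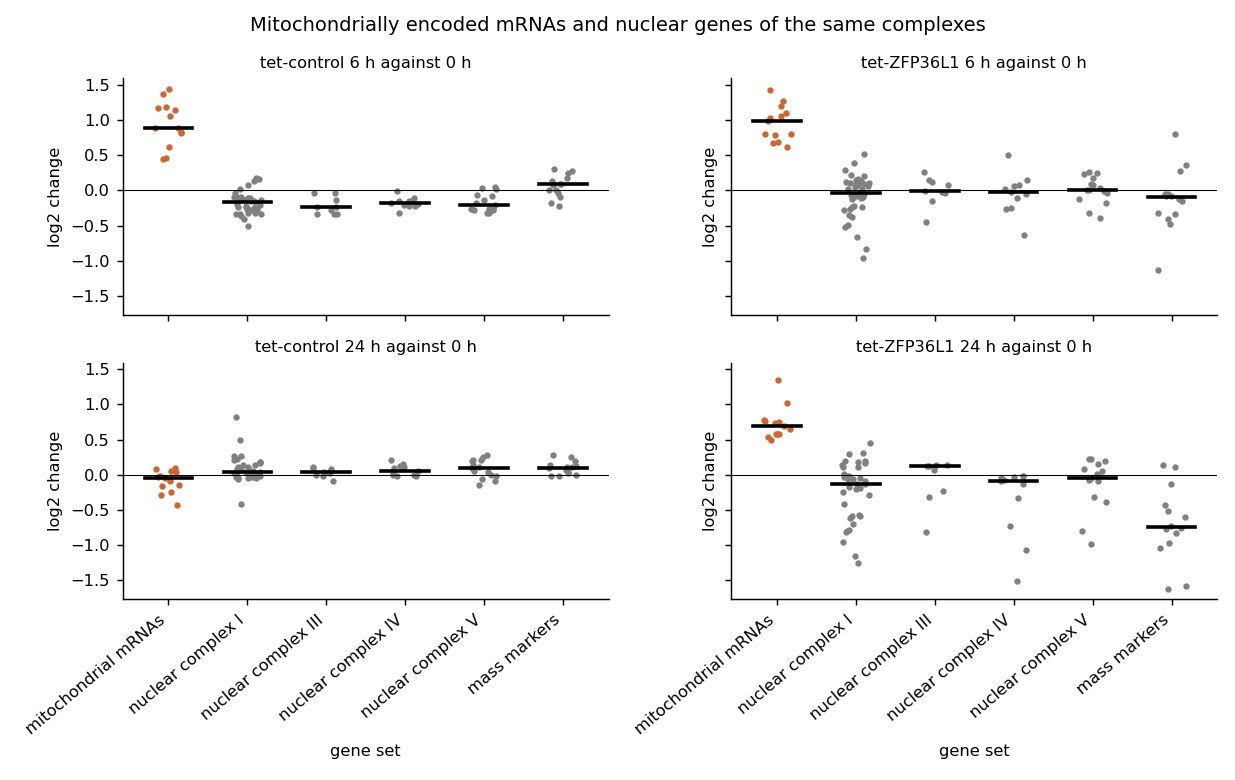
Log2 change from 0 h (y axis) of the mitochondrially encoded mRNAs and of nuclear subunits of complexes I, III, IV and V and mitochondrial mass markers (x axis), for each line at 6 h and 24 h; each point is a gene and each bar a median. In tet-ZFP36L1 at 24 h the mitochondrial mRNAs have a median of 0.70 and the mass markers one of -0.74.

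By induction difference at 24 h, 11 of 37 nuclear complex I subunits, 1 of 9 of complex III, 3 of 11 of complex IV and 2 of 15 of complex V were at least 1.5-fold lower, and none was higher. That is 17 of 72 together, against 17.4% of all genes that were lower and 13.9% that were higher. The lowest were NDUFA7 (-1.98) and NDUFS1 (-1.20) of complex I, CYC1 (-0.80) of complex III, COX7A2 (-1.48) and COX8A (-1.09) of complex IV and ATP5F1B (-1.09) and ATP5F1C (-1.08) of complex V. NDUFS1, which carries iron-sulfur clusters of complex I, was at 173, 158 and 167 CPM in tet-control and at 172, 88.3 and 71.8 CPM in tet-ZFP36L1. The highest complex I subunits were NDUFA10 (0.42) and NDUFV1 (0.33), below the threshold. The mitochondrially encoded subunits of the same complex lay between 0.54 and 1.30.

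Mass markers, nuclear genes for abundant mitochondrial proteins, were lower in tet-ZFP36L1 at 24 h. Of the 14 measured, 9 were at least 1.5-fold below 0 h (median -0.74) and 10 by induction difference (median -0.78), and none was higher. Of all genes 17.0% and 17.4% were lower in these comparisons. VDAC2, an outer membrane channel, was at 226, 242 and 247 CPM in tet-control and at 209, 95.5 and 67.9 CPM in tet-ZFP36L1. CYCS, cytochrome c, was at 236, 258 and 254 CPM and at 190 (0 h), 136 (6 h) and 62.9 CPM (24 h). Both were lower at 6 h already, but the list as a whole had a median change of -0.10 at 6 h in that line (range -1.13 to 0.80). At that time 1 of 14 was at least 1.5-fold lower and 1 higher, against 15.6% and 9.09% of all genes. SLC25A3 (0.03) and TIMM44 (0.07) had the highest induction differences of the list.

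Genes that act on mitochondrial DNA and RNA were described in the same way. Of 8 measured mitochondrial transcription genes, 1 was at least 1.5-fold higher by induction difference at 24 h and none lower (median 0.06), where 13.9% of all genes were higher and 17.4% lower. It was POLRMT, the mitochondrial RNA polymerase, at 92.0, 72.1 and 72.2 CPM in tet-control and 62.3, 62.1 and 79.5 CPM in tet-ZFP36L1. In tet-ZFP36L1 alone its change from 0 h was 0.35. TFAM, which packages and bends the DNA, was at -0.32, TFB2M, which opens promoters, at -0.55 and MTERF4 at 0.39. At 6 h no gene of this list passed 1.5-fold in tet-control and 2 were higher in tet-ZFP36L1, where 9.09% of all genes were.

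The next counts also stand beside 13.9% of all genes higher and 17.4% lower. Of 13 genes of mitochondrial DNA replication and maintenance, 3 were higher and 2 lower by induction difference at 24 h, with TOP1MT, the mitochondrial topoisomerase, at 0.78, TK2 at 0.64, DGUOK at -0.80 and RRM2B at -0.89, the last 3 genes of nucleotide supply. Of 7 measured regulators of mitochondrial biogenesis, 2 were lower, NRF1 (-0.67) and GABPA (-0.65), both transcription factors of nuclear genes for mitochondria, and none was higher. PPARGC1B was at 0.15 and PPRC1 at 0.06. Of 33 genes of mitochondrial RNA processing, decay and modification, 2 were higher and 3 lower, with a median of 0.03. KIAA0391, the nuclease of mitochondrial RNase P, was at 0.73 and RPUSD3 at 0.66. SLIRP, a partner of LRPPRC in stabilising mitochondrial mRNAs, was at -0.83 and TRMU, a tRNA-modifying enzyme, at -0.80.

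Among 10 mitochondrial translation factors, 2 were lower and none higher, beside 17.4% and 13.9% of all genes, GFM2 at -0.87 and MTRF1L at -0.72, with MRRF at 0.32 and MTIF2 at 0.31. Among 11 measured mitophagy genes, 1 was higher and 2 lower (median 0.11), beside 13.9% and 17.4% of all genes. The higher was PINK1, a kinase that marks damaged mitochondria (1.36). The lower were BNIP3 (-1.29) and FUNDC1 (-1.01), both mitophagy receptors, and OPTN was at 0.40. PINK1 was at 21.7, 15.1 and 17.7 CPM in tet-control and at 32.3, 21.6 and 68.4 CPM in tet-ZFP36L1. Of the 4 libraries with doxycycline, the last was the only one above the 0 h level of its line.

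Sensors of RNA duplexes, which both-strand transcription of mitochondrial DNA can form, were also listed. At 24 h, 6 of 9 measured genes of this list were at least 1.5-fold higher by induction difference and none lower (median 0.77), against 13.9% of all genes higher and 17.4% lower. At 6 h none was in either direction (median 0.03). OAS1 was at 2.20 and OAS2 at 2.11, both enzymes that activate RNase L. OAS1 was at 2.63, 0.86 and 2.48 CPM in tet-control and at 4.47, 2.18 and 21.3 CPM in tet-ZFP36L1. MAVS, the adaptor on the mitochondrial surface, was at 0.15 and EIF2AK2 at -0.32. OAS1 was lowest at 6 h in each line, at the low levels of 0.86 and 2.18 CPM. A relation of this list to the mitochondrial share was not tested.

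Like the mitochondrial share, 2 other RNA classes were highest at 6 h in both lines when summed. The 3 nuclear-retained RNAs MALAT1, NEAT1 and KCNQ1OT1, all with at least 10 counts in every library, summed to 80.2, 208 and 115 CPM in tet-control and to 63.5, 120 and 109 CPM in tet-ZFP36L1. Their sum was thus highest at 6 h in both lines. From 6 h to 24 h in tet-ZFP36L1 the single log2 changes ran from -0.77 to 0.08, so not every one was highest at 6 h. Annotated retained-intron transcripts held 3.50%, 4.80% and 3.70% of counts in tet-control and 3.34%, 4.17% and 3.98% in tet-ZFP36L1. Within each line these 2 classes had the same order of libraries, which in tet-control differed from that of the mitochondrial share, whose lowest value was at 24 h. The part of RNA quality or of library make-up in the mitochondrial changes was not tested.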

How the data were processed

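The authors deposited 1 kallisto transcript table per library, with estimated counts and TPM. Per the submitters' processing notes, the tools were kallisto and DESeq2 and the build was hg19, with no version given. Strand, poly(A) selection and rRNA depletion are not given in the sources used here. Of 196354 deposited transcripts, 181857 matched GENCODE release 29 (GRCh38) and were summed to genes. The rest held 5.12% to 5.46% of counts. The authors' estimated counts were scaled with edgeR 4.0.16 TMM factors computed on genes averaging 10 or more counts. Changes were differences of log2(CPM + 0.5). The deposited TPM were used for levels between genes and as an alternative.

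Each group had 1 library, so no test was run. Total estimated counts were 20739025 to 21380480 a library. Shares carry exact binomial intervals and changes carry intervals from counts, both at 95% and for counting error only. The scripts for changes were tested on simulated data.

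The members and lists were chosen with earlier results of these data known. Named were all mitochondrial mRNAs and rRNAs, tRNAs with a mean count of at least 10 (none), the 5 most counted nuclear copies and, of each list, up to 2 genes with the largest positive and up to 2 with the largest negative induction difference at 24 h among measured genes (averaging 50 or more counts). Alternatives were DESeq2 1.42.0 size factors, plain CPM, TMM without mitochondrial genes or from genes with any count, deposited TPM, pseudocounts of 0.1 and 5, a 2-fold threshold, nuclear copies added, overlapping frames left out, and line against line.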

Additional observations from a re-analysis of the deposited data

Results flagged for a closer look

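At 24 h 8 mitochondrial genes stood below their 0 h level in tet-control and above it in tet-ZFP36L1, with counting intervals that left out 0. MT-ND1 (-0.03 in tet-control, 0.70 in tet-ZFP36L1) and MT-ND2 (-0.01 and 0.76) went the same ways, but their tet-control intervals included 0. The induction differences of the 8 on the log2 scale were 0.66 for MT-RNR1, 0.62 for MT-CO1, 0.54 for MT-CO2, 1.78 for MT-ATP8, 0.73 for MT-CO3, 0.99 for MT-ND4L, 0.81 for MT-ND4 and 1.30 for MT-ND6. With 1 library per group, the difference between the lines was not tested for any of them. The tet-control changes were small for MT-CO2 (-0.04) and MT-CO1 (-0.09). They were larger for MT-ATP8 (-0.43), MT-ND6 (-0.28), MT-ND4L (-0.25) and MT-RNR1 (-0.25), with mean counts of 207, 1204.5, 5745.5 and 3763.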

How the results depend on the processing

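No paired analysis was possible because each group has 1 library, and leaving out a library would remove a group. The tet-ZFP36L1 24 h library, which stands apart, is the sole basis of every tet-ZFP36L1 value at 24 h. The mitochondrial shares at 6 h do not use it. The changes from 0 h to 6 h use it only through the scaling and the mean-count filters, which were set over all 6 libraries. The median induction difference at 24 h was 0.90 with plain CPM, 0.84 with deposited TPM and 0.58 line against line. Both scalings also moved the median of all genes, by 0.17 and 0.12. At 6 h it was -0.17 without overlapping frames and -0.30 line against line. With plain CPM the own changes had medians of 0.81 (tet-control, 6 h), 0.94 (tet-ZFP36L1, 6 h), 0.85 (tet-ZFP36L1, 24 h), -0.99 (tet-control, 6 h to 24 h) and -0.043 (tet-ZFP36L1, 6 h to 24 h). With deposited TPM they were 0.84, 0.94, 0.78 and, for tet-ZFP36L1 from 6 h to 24 h, -0.11, with -0.088 for tet-control at 24 h and -0.16 between lines at 0 h. With TMM from genes with any count they were 0.85, 0.95, 0.65 and, for tet-control from 6 h to 24 h, -1.01. For tet-ZFP36L1 at 6 h the median was 0.82 with a pseudocount of 5 and 0.80 without overlapping frames. The latter gave -0.15 between lines at 0 h. At 2-fold, 2 mRNAs passed by induction difference at 24 h, 2 by own change in tet-ZFP36L1 at 24 h, and 6 in each line at 6 h. For tet-ZFP36L1 at 24 h, 13 passed 1.5-fold with plain CPM and 5 (of 9) without overlapping frames.

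The mitochondrial share, in the order tet-control 0, 6 and 24 h and tet-ZFP36L1 0, 6 and 24 h, was 1.46%, 2.77%, 1.34%, 1.39%, 2.32% and 2.24% of all estimated counts. By deposited TPM it was 2.56%, 4.79%, 2.34%, 2.46%, 4.16% and 3.90%. With nuclear copies it was 1.63%, 3.10%, 1.5%, 1.56%, 2.59% and 2.51%, and without the 2 rRNAs 1.40%, 2.71%, 1.31%, 1.30%, 2.24% and 2.18%. The order of the libraries within each line was the same under these 4 settings as in the report. The share of MT-CO1 within the mRNAs by TPM was 15.6%, 17.9%, 15.4%, 18.4%, 17.9% and 17.4%.

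Among single genes, the sign changed in 6 cases, and the cause was not tested. MT-ND5 in tet-control at 24 h was -0.0056 with deposited TPM. From 6 h to 24 h in tet-ZFP36L1, MT-CO2 was 0.075 with plain CPM and 0.0027 with TPM, MT-CO3 was 0.11 and 0.037, and MT-ND4 was 0.046 with plain CPM.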
